A study of Xenopus laevis with 12 samples.

Results

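Late gastrula ectoderm that had received Geminin RNA was compared with younger, untreated ectoderm of the frog Xenopus laevis. The members are the 6 arrays of 2 groups, out of 12 arrays in the series: 3 arrays of Geminin-injected explants at stage 12 and 3 arrays of uninjected explants at stage 10.5. Both groups are animal caps, the roof of the blastula that forms ectoderm in culture. The injected explants came from embryos that received 300 pg of an RNA for Geminin lacking its coil (xGeminin Δcoil) in the animal hemisphere of both blastomeres at the 2-cell stage. The sources used here do not say if that amount went into each blastomere or each embryo. All groups share the culture: 80 caps, excised at stage 8 to 9, made up a sample and were held at 25 °C in the saline 0.7x MMR until sibling embryos had reached the named stage. The third group read here, uninjected explants at stage 12 (3 arrays), gives the normal course from early to late gastrula. The groups compared differ both in stage and in injection, and no array of a control RNA was used here, so stage, Geminin and the injection itself cannot be told apart in their difference.

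Full-length Geminin binds Cdt1 and so keeps DNA from being licensed for replication again within a cell cycle, and Geminin also acts on chromatin and on cell fate in early embryos. Whether the injected form lacking its coil binds Cdt1 was not measured here. Ectoderm of the early gastrula is still uncommitted and holds maternal RNAs and factors shared with pluripotent cells. By the late gastrula, ectoderm under BMP signalling takes an epidermal course, with keratin-bearing, mucus-secreting, multiciliated and ion-transporting cells, while ectoderm shielded from BMP turns neural. The question of the comparison is thus which genes of late injected ectoderm still sat at the young level, which had moved on, and which lay outside the normal range.

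Values are levels on a log2(intensity + 16) scale, quantile normalised over the arrays, and a difference of 1 is 2-fold. Median deposited intensity ran from 49.05 to 145.7 over the 12 arrays. The injected gene was read first. The gmnn.L probe set stood at 11.79, 13.20 and 13.20 in injected stage 12 explants and at 8.32, 7.15 and 8.78 in uninjected stage 10.5 explants, 25.1-fold higher (4.65 ± 0.86 log2, SE, limma adjusted p = 0.00675). The groups did not overlap. In the stage 12 controls gmnn.L was 7.54 and 8.20 in experiments 1 and 2 but 11.77 in experiment 3, so the library labelled uninjected, stage 12, experiment 3 carried a level close to that of injected explants. Main counts without that array are given below. Of 138 named probe sets called, 127 kept their call without it. Of the gene list members, 96 passed without it and 106 with it. Counts of single lists below include that array unless stated. The other copy, gmnn.S, stood lower in late injected explants by 1.26 log2, which did not pass the test (difference -1.26 ± 0.52, adjusted p = 0.142). Array profiles of late injected explants correlated with those of early uninjected explants at 0.867 to 0.910 (median 0.891) and with those of late uninjected explants at 0.793 to 0.944 (median 0.873), while early and late uninjected explants correlated at 0.712 to 0.869 (median 0.831). At stage 12, experiments 2 and 3 lay close to each other, at 0.982 within the injected and 0.990 within the uninjected group.

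Of 11618 probe sets tested, 1145 (9.86%) differed between late injected and early uninjected explants, 525 (4.52%) higher and 620 (5.34%) lower. The arrays of the 2 groups did not overlap for 31.4% of all probe sets. The difference was at least 2-fold for 258 higher (2.22%) and 418 lower (3.60%) probe sets. For comparison, 3683 (31.7%) differed between uninjected stages 12 and 10.5, and 1509 (13.0%) between injected and uninjected explants at stage 12. These comparisons share arrays pairwise and are not independent. Without uninjected stage 12 experiment 3, the array with high gmnn.L, the 1145, 3683 and 1509 became 931, 3219 and 1162. The last count was 858, 748 and 998 without injected stage 12 experiment 1, 2 and 3, and 954 and 967 without uninjected stage 12 experiment 1 and 2. Injected and uninjected explants of 1 stage were paired by experiment, and with that pairing as a random block the count was 4676 (2300 with the experiment number as a fixed block), so the fit without a block calls fewer differences from the late level. The 1145 became 468 without injected stage 12 experiment 3, 568 without experiment 2 of that group, and 633, 745 and 762 without uninjected stage 10.5 experiment 1, 2 and 3. With the stage 12 experiments 2 and 3 averaged as 1 array it was 357. The balance of directions depends on scaling. On the deposited scale 24 were higher and 196 lower, where the median difference of all probe sets was -0.22, and after median centring 1055 were higher and 532 lower, with a median of 0.13 against 0.02 under quantile normalisation. Of 138 named probe sets called, 48 kept their call on the deposited scale, and losses are named below only in part. Ccnb2.L, sox3.S, rrm2.2.L, h1-10.S, id3 and slc7a3.L are among those that lost it.

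The normal course was taken as the probe sets that changed at least 2-fold between uninjected stages 10.5 and 12, with an adjusted p under 0.05: 1043 (8.98%) rose and 1172 (10.1%) fell. Each was then read in late injected explants against the early uninjected arrays. A probe set counts as advanced if it passed the test in the normal direction, as opposite if it passed in the other direction, and as at the young level if it did not pass and the 95% interval of its difference lay within 2-fold on both sides. All others are unresolved. Of the normal risers, 267 (25.6%) had advanced, 294 (28.2%) were at the young level, 479 (45.9%) were unresolved and 3 were opposite. Of the normal fallers, 353 (30.1%) had advanced, 245 (20.9%) were at the young level, 574 (49%) were unresolved and 0 were opposite. Among all probe sets, 4.52% were called higher and 5.34% lower. Because the same early arrays set the normal change and the injected difference, chance shifts in them move both, so no overlap between the 2 is read as a result.

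**Figure D1:**
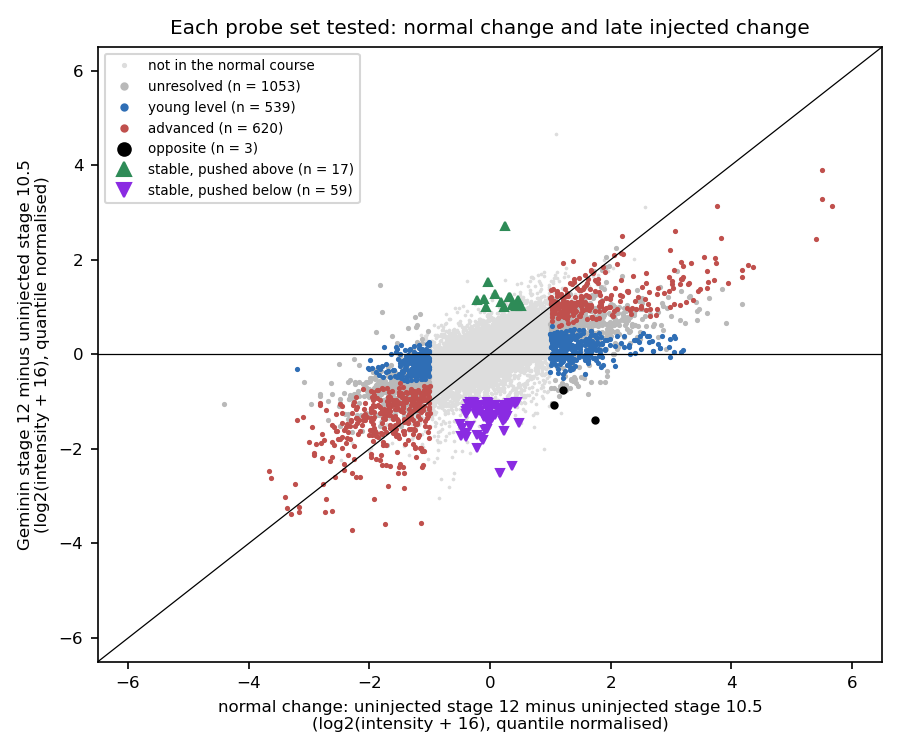
Each point is 1 probe set. The x axis is the normal change (uninjected stage 12 minus uninjected stage 10.5) and the y axis the difference of Geminin stage 12 from the same early arrays, both in log2(intensity + 16). Points on the diagonal reached the late level and points on the horizontal line kept the young level; the 539 young-level probe sets (blue) lie around the horizontal line, most of the 620 advanced ones (red) lie between it and the diagonal or near the diagonal, and the 59 stable probe sets pushed below (violet) outnumber the 17 pushed above (green).

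The median difference of advanced risers was 1.09 log2 against a normal change of 1.58, and that of advanced fallers was -1.28 against -1.60. Young-level risers had a median of 0.16 against a normal 1.33, and young-level fallers -0.23 against -1.17. Of the young-level probe sets, 255 of 294 risers and 187 of 245 fallers also differed from uninjected explants of the same stage. The class rule favours this, since it requires a normal change of at least 2-fold and an injected level near the same early arrays. These counts are therefore not read as a separate result. The unresolved probe sets leaned in the normal direction, 438 of 479 risers and 557 of 574 fallers, with medians of 0.67 and -0.68, and their typical interval reached 0.70 and 0.71 to either side. Both differences are taken from the same early arrays, and the class leaves out intervals within 2-fold. Both favour this lean, so it is not read as a result. The class counts move with single arrays. Without injected stage 12 experiment 3, 106 risers and 170 fallers had advanced, and without experiment 2 of that group 136 and 214. Advanced fallers numbered 215 without uninjected stage 10.5 experiment 1, and young-level risers and fallers 193 and 160 without experiment 2 of that group. Without uninjected stage 12 experiment 3, the array with high gmnn.L, the young-level counts were 346 and 326 and the advanced counts 234 and 318.

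**Figure D2:**
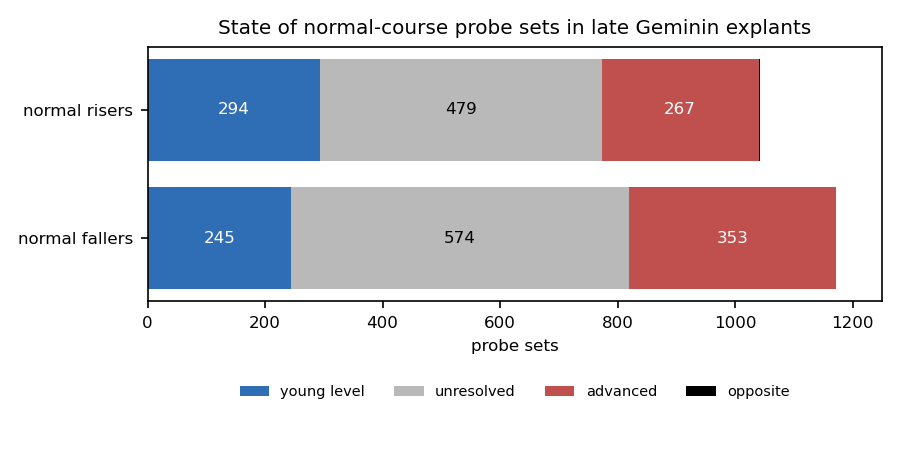
Probe sets that rose or fell at least 2-fold in the normal course, split by where late Geminin explants stood. The x axis counts probe sets. Young-level and advanced groups are of like size among risers (294 and 267), and the unresolved group is the largest in both rows (479 and 574).

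Secretory genes were among those that advanced. The intelectin gene itln1.L, which encodes a lectin of mucus-secreting cells, stood at 5.24, 5.63 and 5.30 in early uninjected explants, at 8.94, 7.68 and 8.98 in late injected explants and at 11.91, 10.72 and 10.55 in late uninjected explants. The 3 groups did not overlap, and late injected explants lay between the others. They were 8.84-fold above the young level (3.14 ± 0.44, adjusted p = 0.00125) and still short of the late level by 2.53 log2 (difference -2.53, adjusted p = 0.00357). The same order held for agr2.S, a disulfide isomerase of secretory cells, at 5.50, 5.58 and 5.08 early, 7.53, 6.88 and 7.32 in late injected and 9.93, 9.76 and 9.58 in late uninjected explants (difference from early 1.86 ± 0.27, adjusted p = 0.00166). Of 5 mucus and secretory genes measured, 2 rose and 0 fell (all named genes: 4.73% rose, 5.60% fell). The median was 0.81 (late uninjected 3.00, all named genes 0.02). Of the 5, 4 were lower than in late uninjected explants (all named genes: 7.54% lower, 5.98% higher). The list held 4 normal risers, which are high in those same late arrays by definition. That favours this count, so it is not read as a separate result.

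Gata3.S, a GATA factor of ectoderm downstream of BMP, moved in the same way. Its levels were 5.66, 5.72 and 4.57 early, 6.57, 7.37 and 7.38 in late injected and 9.37, 9.50 and 9.62 in late uninjected explants. The rise of 1.79 ± 0.33 (adjusted p = 0.00674) covered less than the normal rise of 4.18. Further members of this set were fa2h.L, a fatty acid hydroxylase (1.94 ± 0.34, adjusted p = 0.00507, normal 3.75), the vesicle calcium sensor syt1.L (2.03 ± 0.39, adjusted p = 0.00751, normal 3.73), ehd4.L, of endocytic recycling (1.94 ± 0.35, adjusted p = 0.0057, normal 3.33), and the lectin gene fucolectin.S (1.53 ± 0.29, adjusted p = 0.00691, normal 3.62). All of these kept their call with each of the 12 arrays left out in turn, and itln1.L, fa2h.L and ehd4.L also on the deposited scale, where agr2.S, gata3.S, syt1.L and fucolectin.S lost theirs; gata3.S also lost it with stage 12 experiments 2 and 3 averaged. Over all advanced risers, 90 of 267 were short of the late level, 131 lay within 2-fold of it by their interval, 0 lay beyond it and 46 were unresolved. The number short of it was 23 to 51 without any 1 of injected stage 12 experiments 1, 2 and 3, uninjected stage 10.5 experiments 2 and 3 and uninjected stage 12 experiment 2, and the number within 2-fold was 61 and 63 without injected stage 12 experiments 2 and 3. Without uninjected stage 12 experiment 3, 63 were short and 99 within 2-fold.

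Epidermal structure moved unevenly. The embryonic keratin krt12.4.S stood at 8.39, 7.17 and 6.08 early, 10.20, 9.24 and 9.60 in late injected and 11.49, 10.81 and 10.84 in late uninjected explants, a rise of 2.47 ± 0.49 (adjusted p = 0.00908). Its other copy krt12.4.L (1.21 ± 0.49, adjusted p = 0.142) and krt70.L (0.49 ± 0.57, adjusted p = 0.637) did not pass. Ppl.L, for the cornified-envelope protein periplakin, rose by 1.11 (adjusted p = 0.0227) against a normal 3.25; a second probe set of the gene gave 0.21 and did not pass. Of 19 epidermal genes, 2 rose and 2 fell (all named genes: 4.73% rose, 5.60% fell), with a median of 0.25 (late uninjected 0.61). Ppl.L lost its call without injected stage 12 experiment 3 or any 1 of the uninjected stage 10.5 arrays. One of the falls, has1.S for a hyaluronan synthase, was -0.39 (adjusted p = 0.0468), lost its call in 10 of 12 runs with 1 array left out and changed sign under both other scalings; the other, tfap2a.L, is described below.

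**Figure D3:**
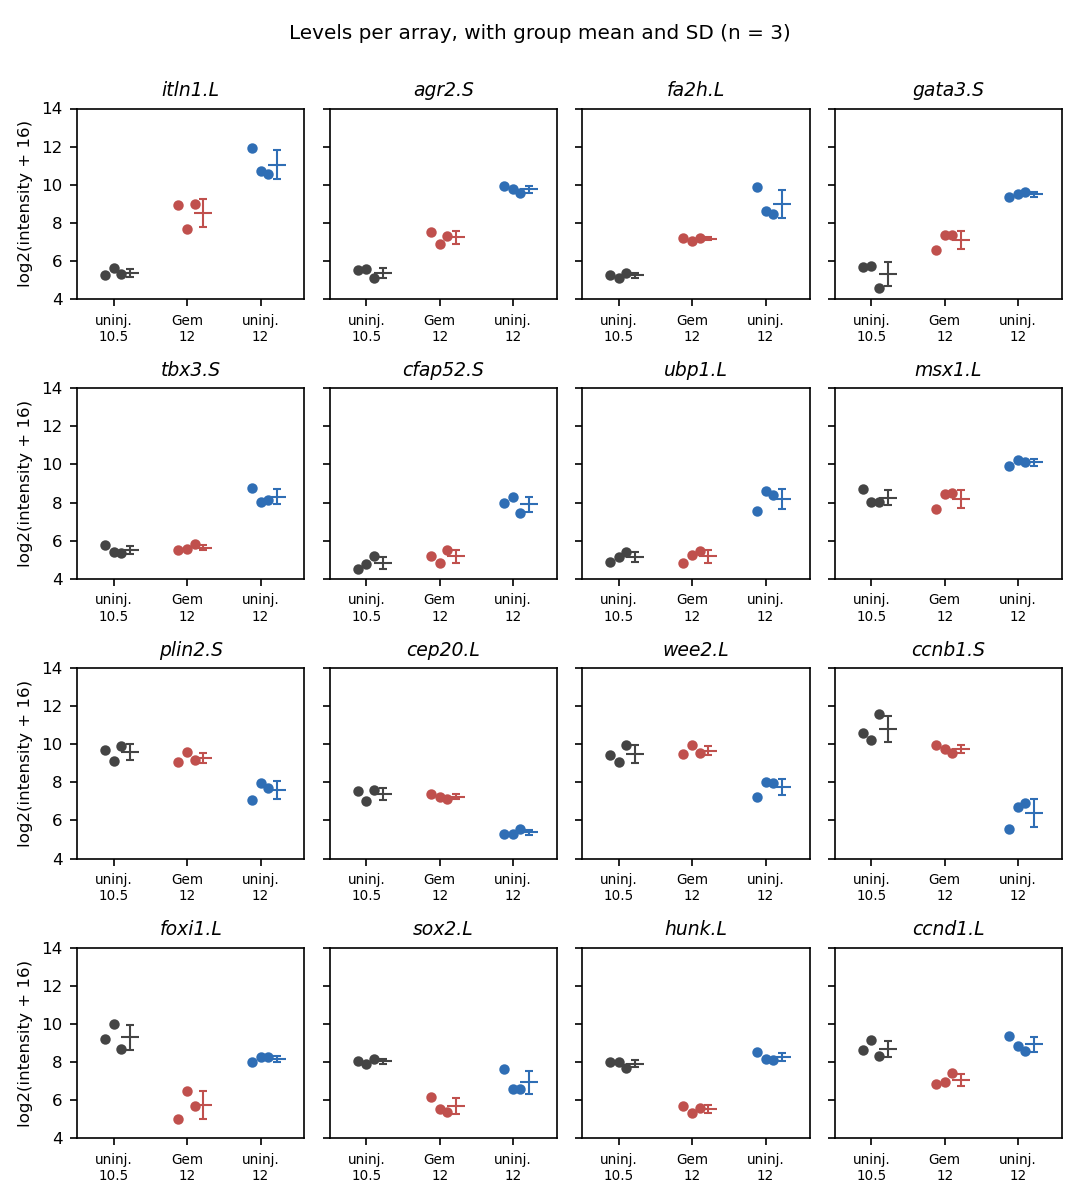
Level of 16 genes on each array, in log2(intensity + 16), with group mean and SD (n = 3 arrays). From the top row down, the rows show advanced risers, risers at the young level, falling or persisting early RNAs, and genes below both uninjected groups; ubp1.L in late injected explants (4.83 to 5.47) lies on the early values, and foxi1.L (5.01 to 6.47) below all uninjected arrays.

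Several risers in the same tissue had not left the young level. Tbx3.S, a T-box repressor that responds to BMP, stood at 5.75, 5.39 and 5.36 early and at 5.52, 5.58 and 5.81 in late injected explants, against 8.74, 8.05 and 8.15 in late uninjected explants. Late injected and early values overlapped, and the late uninjected values lay apart. The difference from early was 0.14 (95% interval -0.35 to 0.62) where the normal rise was 2.81, and the other copy, tbx3.L, gave 0.30 (-0.16 to 0.76) against 2.43. Both kept this class with each array left out in turn. Of 39 genes of BMP signalling and its targets, 13 were normal risers (all named genes: 8.52%). Of these 13, 7 were at the young level, 1 (gata3.S) had advanced and 5 were unresolved. Of all 508 named risers, 135 were at the young level, 144 had advanced and 228 were unresolved. The other young-level members were tbx2.L (0.28, normal 2.69), the homeobox genes msx1.L (-0.05, normal 1.85) and dlx3.S (-0.06, normal 1.16), id2.S, an inhibitor of bHLH factors (-0.02, normal 1.66), and tll1.S, a tolloid-type protease (0.22, normal 1.72). The other copy of id2, id2.L, was lower than early (-0.97, limma adjusted p = 0.0338). It lost that call without injected stage 12 experiment 1 or 3 or uninjected stage 10.5 experiment 1 or 2. The class of msx1.L held in 6 of 12 runs with 1 array left out, being lost without any 1 of the 6 arrays compared, and that of tbx2.L in 3 of 12.

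Ubp1.L, a grainyhead-family factor placed among ionocyte genes, gave 4.86, 5.15 and 5.4 early, 4.83, 5.24 and 5.47 in late injected and 7.57, 8.58 and 8.41 in late uninjected explants. The first 2 groups overlapped throughout (difference 0.04, interval -0.58 to 0.66, normal 3.05). The other normal riser among ionocyte genes, atp6v0d2.L, a subunit of the proton pump, was at the young level too (0.15, normal 1.04). Among multiciliated cell genes, cfap52.S, of the ciliary axoneme, stood at 4.53, 4.78 and 5.18 early, 5.22, 4.84 and 5.49 in late injected and 7.97, 8.28 and 7.45 in late uninjected explants. Its difference from early was 0.35 (-0.23 to 0.93, normal 3.07), and cfap52.L gave 0.26 (normal 2.48); these classes held in 8 and 9 of 12 runs with 1 array left out. The tubulin gene tuba1cl.3.L, at 11.26, 10.61 and 10.17 early and 10.66, 10.52 and 10.89 in late injected explants, was at the young level by its brightest probe set (0.01, normal 1.60), but its other probe sets gave a rise of 2.45 (adjusted p = 0.0364, normal 5.41) and 0.60 (adjusted p = 0.281), so its class differs between probe sets. Of 16 multiciliated cell genes, 12 were normal risers (all named genes: 8.52%). Of these 12, 3 were at the young level, 2 had advanced and 7 were unresolved. The young-level count lies near the share over all named risers, where 135 of 508 were at the young level, 144 had advanced and 228 were unresolved. The 2 that advanced were rsph9.L, of the radial spoke (0.97 ± 0.22, adjusted p = 0.0188, normal 2.51; a second probe set gave 0.78 and did not pass, adjusted p = 0.109), and cfap20.L, of the axonemal microtubules (0.74 ± 0.20, adjusted p = 0.038, normal 1.76). Neither passed without injected stage 12 experiment 2 or 3 or without uninjected stage 10.5 experiment 1, and cfap20.L also lost its call without injected stage 10.5 experiment 2, injected stage 12 experiment 1, uninjected stage 10.5 experiment 2 or 3 or uninjected stage 12 experiment 2. Further cfap20.L probe sets, not followed through those runs, also passed (0.84, adjusted p = 0.034, and 0.99, adjusted p = 0.0247). All 12 risers of this list were lower than in late uninjected explants (all named genes: 7.54% lower). The choice of risers by those same late arrays favours this, so the count is not read as a separate result. The median of the list was 0.30 (late uninjected 1.72).

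Among named genes, the riser at the young level with the largest normal change was slc38a2.L, a neutral amino acid transporter, at 6.31, 6.78 and 5.97 early, 6.06, 5.98 and 7.16 in late injected and 9.49, 9.44 and 9.63 in late uninjected explants (difference 0.04, interval -0.63 to 0.71, normal 3.17). Fzd10.S, a Wnt receptor, gave 0.13 (-0.50 to 0.75, normal 2.82), and the receptor kinase gene kit.S 0.38 (-0.21 to 0.98, normal 3.06). With 1 array left out, the class of fzd10.S held in 11 and that of kit.S in 3 of 12 runs. Second probe sets differed: that of fzd10.S gave 0.86 (adjusted p = 0.0882) and that of kit.S did not rise at least 2-fold in the normal course (0.57). Tnni2.S, a troponin of muscle, was at -0.05 (normal 2.98) by one probe set and 0.73 (adjusted p = 0.0898, normal 3.44) by the other. Foxa1.S was the young-level member of the secretory list, at 0.37 against a normal 1.06.

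Fallers at the young level included maternal RNAs. Outside that list, cep20.L, a centrosomal protein gene, stood at 7.55, 7.01 and 7.57 early, 7.40, 7.24 and 7.12 in late injected and 5.30, 5.31 and 5.54 in late uninjected explants (difference -0.12, interval -0.61 to 0.36, normal -1.99). Plin2.S, a lipid droplet coat protein, gave 9.71, 9.13 and 9.92 early, 9.05, 9.59 and 9.19 in late injected and 7.06, 7.96 and 7.73 in late uninjected explants (-0.31, -0.92 to 0.30, normal -2.0). In both genes the late injected values overlapped the early ones and not the late uninjected ones. Of 45 maternal and oocyte RNAs, 17 were normal fallers (all named genes: 11.1%): 6 were at the young level, 3 had advanced and 8 were unresolved. Of all 665 named fallers, 133 were at the young level, 197 had advanced and 335 were unresolved. Of the 45, 15 were higher than in late uninjected explants (all named genes: 5.98%). Beside plin2.S, the 6 were zar2.S, an oocyte RNA-binding factor (-0.16, normal -1.17), wee2.L, the kinase that restrains Cdk1 in oocytes and early embryos (0.16, normal -1.76), lsm14b.S, of stored messenger RNA particles (0.15, normal -1.56), the importin kpna7.S (-0.11, normal -1.15) and the T-box gene vegt.S (-0.23, normal -1.21). Zar2.S and cep20.L kept the class with each array left out, kpna7.S in 11, plin2.S in 10, wee2.L and lsm14b.S in 9 and vegt.S in 8 of 12 runs.

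Falls from the young level numbered 3 of 45 and rises 3, near the shares over all named genes (5.60% and 4.73%). The falls were btg4.S and patl2.L, of messenger RNA decay and repression (-1.81, adjusted p = 0.0209, and -1.02, adjusted p = 0.034), and gdf1.S, a TGF-beta family ligand (-0.80, adjusted p = 0.0475). No fall passed without injected stage 12 experiment 3 or without uninjected stage 10.5 experiment 1 or 3, where 0 of the list fell; 1 fell without injected stage 12 experiment 2 or uninjected stage 12 experiment 2, and 6 without uninjected stage 12 experiment 1. Rises were seen for both copies of ybx2, which packages messenger RNA in germ cells (ybx2.S 1.08 ± 0.19, adjusted p = 0.00517; ybx2.L 1.48 ± 0.39, adjusted p = 0.0323), and for eif4e1b.S, a cap-binding protein of oocytes (0.87, adjusted p = 0.0353); 1 of the list rose without injected stage 12 experiment 2 or 3 or uninjected stage 10.5 experiment 2.

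Of 21 neural plate genes, 10 fell and 0 rose from the young level (all named genes: 5.60% fell), with a median of -0.88 (late uninjected -1.20). Of the 13 normal fallers, 9 had advanced (all named genes: 197 of 665 fallers). Sox3.S, an early neural and pluripotency factor, stood at 10.12, 10.42 and 10.67 early, 9.48, 9.28 and 8.64 in late injected and 7.74, 7.68 and 8.11 in late uninjected explants. It had fallen by 1.27 (difference -1.27 ± 0.24, adjusted p = 0.00691) and remained above the late level by 1.29 (adjusted p = 0.00478). Zic1.S, a zinc finger factor of the neural plate, lay between the uninjected groups in the same way (-1.52 ± 0.22, adjusted p = 0.00176, normal -2.33), although a second probe set gave -3.33 and -0.16 from the late level. Sox11.S fell by 2.12 (difference -2.12 ± 0.35, adjusted p = 0.00379), and the Iroquois gene irx1.L by 1.95 (-1.95 ± 0.26, adjusted p = 0.00114). On the deposited scale 6 of the 21 fell and after median centring 10 fell.

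The list of uncommitted ectoderm and pluripotency shares sox2, sox3, id3 and ventx genes with other lists. Of its 24 genes, 11 fell, 1 rose and 12 did not pass (all named genes: 5.60% fell, 4.73% rose). The median was -0.91 (late uninjected -0.80). Of the 11, 4 were normal fallers that had advanced. The list had 9 normal fallers, and the other 5 were unresolved. Of all 665 named fallers, 197 had advanced and 335 were unresolved. Against late uninjected explants, 10 of the 24 were lower and 4 higher (all named genes: 7.54% lower, 5.98% higher). Tdgf1.3.L, a coreceptor of Nodal signals, stood at 11.85, 11.49 and 12.12 early, 8.88, 9.57 and 9.20 in late injected and 7.09, 8.49 and 8.97 in late uninjected explants (difference from early -2.60 ± 0.39, adjusted p = 0.00231). Pou5f3.2.L, an Oct4-related factor, fell by 0.93 (-0.93 ± 0.20, adjusted p = 0.0139), as it did normally (-0.89), and lost its call without injected stage 12 experiment 3. It also lost its call on the deposited scale and after median centring. Dppa2.L, of pluripotent and germ cells, rose by 0.81 ± 0.19 (adjusted p = 0.021), with 0.01 in the normal course; that call was lost without injected stage 12 experiment 2 or 3 or uninjected stage 10.5 experiment 1 or 2.

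Of 13 Wnt response genes, 6 fell and 0 rose (all named genes: 5.60% fell, 4.73% rose), with a median of -0.84 (late uninjected 0.10). Sp5l.S, a transcription factor induced by Wnt, stood at 9.80, 10.22 and 10.92 early, 6.90, 7.75 and 6.62 in late injected and 6.11, 7.38 and 7.95 in late uninjected explants (-3.22 ± 0.49, adjusted p = 0.00227); 2 further probe sets gave -3.38 and -3.31. The feedback inhibitor axin2.L fell by 1.66 (-1.66 ± 0.27, adjusted p = 0.00362), within 2-fold of the late level. The count was 3 without injected stage 12 experiment 2 or 3. Other normal fallers that had advanced were tgif2.S, a homeobox repressor of TGF-beta responses (10.03-fold lower; -3.33 ± 0.27, adjusted p = 9.35e-05), mex3b.S, an RNA-binding protein (-3.01 ± 0.40, adjusted p = 0.00099), aplnr.S, the apelin receptor (-2.75 ± 0.43, adjusted p = 0.00288), prdm1.S, a zinc finger repressor (-2.58 ± 0.26, adjusted p = 0.000246), and ackr3.L, a chemokine receptor (-1.86 ± 0.24, adjusted p = 0.000889).

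Among cell division genes, ccnb1.S, for cyclin B1, stood at 10.58, 10.24 and 11.56 early, 9.96, 9.75 and 9.53 in late injected and 5.55, 6.72 and 6.89 in late uninjected explants. The difference of -1.05 ± 0.38 from early did not pass (adjusted p = 0.0994), that from late uninjected explants was 3.36 (adjusted p = 0.000303), and the gene, chosen after its values were seen, is unresolved by the rule. Ccnb2.L, cyclin B2, fell by 1.44 (-1.44 ± 0.15, adjusted p = 0.00026) to within 2-fold of the late level, and racgap1.L, of cytokinesis, by 1.60 (-1.60 ± 0.30, adjusted p = 0.00734). Of 79 mitotic genes, 12 fell and 0 rose (all named genes: 5.60% fell, 4.73% rose). The median of -0.25 (late uninjected -0.57) was 0.01 after median centring, where 4 rose and 5 fell. Without injected stage 12 experiment 3, 6 fell. The list had 21 normal fallers, of which 11 had advanced, 9 were unresolved and 1, wee2.L, was at the young level. Of all 665 named fallers, 197 had advanced, 335 were unresolved and 133 were at the young level.

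Among 60 genes of replication and licensing, 7 fell and 3 rose (all named genes: 5.60% fell, 4.73% rose), with a median of -0.37 (late uninjected -0.43). Cdt1.L, the licensing factor that full-length Geminin binds, stood at 10.77, 10.59 and 11.43 early, 9.67, 10.02 and 9.63 in late injected and 8.33, 8.89 and 8.89 in late uninjected explants. The 3 groups did not overlap; the gene fell by 1.15 from early (-1.15 ± 0.24, adjusted p = 0.0114) and stayed 1.07 above the late level (adjusted p = 0.0136), and the first call was lost without injected stage 12 experiment 3. A second probe set of cdt1.L gave -0.30 from early and did not pass (adjusted p = 0.41). Cdc6.S, which loads the replicative helicase together with Cdt1, fell by 2.16 (-2.16 ± 0.35, adjusted p = 0.00324), rpa3.S, of the single-strand binding complex, by 1.60 (-1.60 ± 0.26, adjusted p = 0.00346), and rrm2.2.L, a ribonucleotide reductase subunit, by 1.32 (-1.32 ± 0.18, adjusted p = 0.00099). The rises were gmnn.L, the injected gene, pcna.S, the polymerase clamp (0.90, adjusted p = 0.0443), and mcmbp.L, which binds the helicase (0.85, adjusted p = 0.0462). Without single arrays the falls numbered 3 (injected stage 12 experiment 3), 4 (uninjected stage 10.5 experiment 1) and 13 (uninjected stage 12 experiment 1); the rises numbered 6 without uninjected stage 12 experiment 1, and 1 without any 1 of the injected stage 12 arrays, uninjected stage 10.5 experiments 1 and 2 or uninjected stage 12 experiments 2 and 3.

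Of 70 ribosomal protein genes measured, 22 rose and 0 fell (all named genes: 4.73% rose), with a median of 0.58 (late uninjected 0.73). Of the 26 normal risers, 17 had advanced and 0 were at the young level (all named genes: 144 and 135 of 508 risers). Rps9.S stood at 10.33, 9.82 and 9.34 early, 11.07, 11.12 and 11.16 in late injected and 11.20, 11.11 and 10.99 in late uninjected explants. Late injected values lay above all early ones and overlapped the late ones (1.29 ± 0.22, adjusted p = 0.00494). Rpl7a.S rose by 1.25 ± 0.19 (adjusted p = 0.00263) and rpl39.L by 1.09 ± 0.15 (adjusted p = 0.00139). The median was 0.73 on the deposited scale and 1.08 after median centring, but the calls were 0 and 61, and 12 rose without injected stage 12 experiment 3. H1-10.S, a linker histone gene, also reached the late level, at 7.81, 8.36 and 8.03 early, 10.26, 9.62 and 9.82 in late injected and 9.89, 9.93 and 9.98 in late uninjected explants (1.84 ± 0.21, adjusted p = 0.00049).

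Some transcription factors were called below the late level as well as below the young level. The call against the late level depended on scaling and on single arrays. Foxi1.L, a regulator of ectoderm and later of ionocytes, stood at 9.21, 10.01 and 8.70 early and at 7.99, 8.26 and 8.25 in late uninjected explants, but at 5.01, 6.47 and 5.71 in late injected explants. All injected values lay below all uninjected ones. The gene was 11.9-fold below the young level (-3.57 ± 0.40, adjusted p = 0.000398) and 2.44 log2 below the late level (difference -2.44, adjusted p = 0.00275). Sox2.L, a factor of neural and pluripotent cells, gave 8.05, 7.90 and 8.15 early, 6.17, 5.55 and 5.37 in late injected and 7.62, 6.58 and 6.60 in late uninjected explants, and again the injected values were the lowest (-2.34 ± 0.30 from early, adjusted p = 0.000803; -1.24 from late, adjusted p = 0.0185). Tfap2a.L, a factor of epidermis and neural crest, gave 11.58, 11.82 and 11.49 early, 9.03, 10.07 and 9.67 in late injected and 10.32, 10.64 and 10.66 in late uninjected explants (-2.04 ± 0.23 from early, adjusted p = 0.000445; -0.95 from late, adjusted p = 0.0206). A second sox2.L probe set gave -2.21 and did not pass (adjusted p = 0.0534).

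In all, 16 of 353 advanced fallers lay beyond the late level, 157 within 2-fold of it, 52 short of it and 128 were unresolved. On the deposited scale 0 lay beyond, and 1 did with stage 12 experiments 2 and 3 averaged. The same injected arrays enter the calls against early and late explants, which favours a place beyond the late level. The 16 included sall1.L (-2.38 from early, -1.25 from late), irx2.L (-1.78, -0.76), lhx5.S, an anterior neural homeobox gene (-3.06, -1.14; -1.90 and -0.61 by a second probe set, which did not pass against late, adjusted p = 0.318), and lrwd1.L, a partner of the origin recognition complex in mammals (-2.79, -1.10). With experiments paired within stage as a random block, 30 lay beyond and 131 short. The number beyond was 3 without uninjected stage 12 experiment 3, 4 and 9 without experiments 2 and 1 of that group, 5, 7 and 5 without injected stage 12 experiments 1, 2 and 3, and 10 without injected stage 10.5 experiment 2. The number short was 12 to 30 without any 1 of the injected stage 12 arrays, uninjected stage 10.5 experiments 1 and 3 or uninjected stage 12 experiment 2, and the number within 2-fold was 69 without injected stage 12 experiment 3 and 88 without experiment 2. Without uninjected stage 12 experiment 3, 41 were short and 126 within 2-fold. With 1 array left out, sox2.L and tfap2a.L stayed beyond in 8, foxi1.L, sall1.L and lrwd1.L in 5, lhx5.S in 3 and irx2.L in 1 of 12 runs. The falls of these 7 genes from the young level passed in all 12. Foxi1.L, lhx5.S, irx2.L and lrwd1.L did not stay beyond without uninjected stage 12 experiment 3, the array with high gmnn.L.

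Further genes dropped from a level that the normal course keeps. There were 4305 probe sets that were stable in the uninjected explants (not called, 95% interval within 2-fold). Of these, 59 (1.37%) were pushed at least 2-fold below and 17 (0.395%) above the young level. Without uninjected stage 12 experiment 3, 41 were pushed below and 13 above. From late uninjected explants, 54 of the 59 and 9 of the 17 also differed. The rule favours such a difference, since it requires a stable normal course and a shift of at least 2-fold from early. Hunk.L, a protein kinase, stood at 8.02, 8.00 and 7.69 early, 8.52, 8.16 and 8.10 in late uninjected and 5.69, 5.32 and 5.61 in late injected explants. The injected values lay apart from both other groups (5.14-fold below early; -2.36 ± 0.21, adjusted p = 0.000113). A second probe set of this gene gave -1.15 and did not pass (adjusted p = 0.0681). Ccnd1.L, cyclin D1, stood at 8.64, 9.16 and 8.32 early, 9.34, 8.86 and 8.59 in late uninjected and 6.83, 6.97 and 7.43 in late injected explants (-1.63 ± 0.27, adjusted p = 0.00388). Its fall kept its call with each array left out. It left the pushed-below class without uninjected stage 12 experiment 3, the array with high gmnn.L, or uninjected stage 10.5 experiment 2. Cxcr4.L, a chemokine receptor, fell by 1.71 (-1.71 ± 0.29, adjusted p = 0.00414), cited4.L, a transcriptional coregulator, by 1.73 (-1.73 ± 0.20, adjusted p = 0.000456), and kmt5a.S, the histone H4 lysine methyltransferase, by 1.75 (-1.75 ± 0.33, adjusted p = 0.00746).

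Gatm.L, the first enzyme of creatine synthesis, fell by 2.50 (-2.50 ± 0.30, adjusted p = 0.000623) from a level that was 10.09, 10.51 and 10.17 early and 10.52, 10.42 and 10.34 in late uninjected explants, though a second probe set of the gene gave 0.44 (adjusted p = 0.658). Ventx1.1.L, a homeobox factor of ventral and uncommitted ectoderm downstream of BMP, fell by 1.24 (-1.24 ± 0.27, adjusted p = 0.015) where the normal change was 0.16. A second probe set of ventx1.1.L gave -0.14 (adjusted p = 0.858), and the first lost its call without injected stage 12 experiment 3 or uninjected stage 10.5 experiment 1. Further falls in the BMP list were id3 (-1.41 ± 0.22, adjusted p = 0.00291), ventx2.2.L (-1.82 ± 0.36, adjusted p = 0.00886), ventx2.1.L (-1.54 ± 0.32, adjusted p = 0.0112) and gata2.L (-2.09 ± 0.59, adjusted p = 0.0433). Second probe sets of id3 and gata2.L gave -0.84 and -1.06 and did not pass (adjusted p = 0.133 and 0.0835), and gata2.L kept its call in 4 of 12 runs with 1 array left out. In all, 9 of the 39 genes of the BMP list fell from the young level and 1 rose (all named genes: 5.60% fell, 4.73% rose). The median was -0.44 (late uninjected 0.47), and 24 were below late uninjected explants (all named genes: 7.54%). The falls numbered 4 without injected stage 12 experiment 3 and 5 without uninjected stage 10.5 experiment 1. Pushed below numbered 33 and 38 without uninjected stage 10.5 experiments 1 and 2 and 38 without injected stage 12 experiment 3.

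Dll1.L, for a Notch ligand, stood at 9.25, 9.26 and 8.57 early, 10.07, 10.07 and 10.12 in late uninjected and 7.54, 8.17 and 8.16 in late injected explants. It is the named gene of the opposite class, lower than early by 1.07 (difference -1.07 ± 0.29, adjusted p = 0.0361) where it normally rose by 1.06, and this class held in 4 of 12 runs with 1 array left out. The class held 1 probe set, not 3, without injected stage 12 experiment 1 or 2, uninjected stage 10.5 experiment 1 or uninjected stage 12 experiment 3, and 7 without uninjected stage 12 experiment 1. Dlc.L, for another, fell by 2.63 (-2.63 ± 0.27, adjusted p = 0.00026) with a normal change of -0.61 that did not pass. Hs3st1.L, a heparan sulfate sulfotransferase (-3.03 ± 0.26, adjusted p = 9.35e-05), and klf2.S, a Krüppel-like factor (-2.65 ± 0.37, adjusted p = 0.00123), were also far below both uninjected groups, at 5.27, 6.07 and 5.96 and at 6.28, 7.14 and 6.76. Of the rises from a stable level, dio3.L, the deiodinase that inactivates thyroid hormone, went from 5.77, 5.89 and 5.84 to 7.17, 7.01 and 6.98 (1.22 ± 0.20, adjusted p = 0.004), with 6.0, 6.13 and 6.37 in late uninjected explants. Nfu1.S, of iron-sulfur cluster assembly (1.16 ± 0.19, adjusted p = 0.00355), and samm50.S, of the mitochondrial outer membrane (1.1 ± 0.23, adjusted p = 0.0116), rose as well. On the deposited scale these 3 rises did not pass, and pushed above numbered 8 without uninjected stage 10.5 experiment 1 or 2.

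**Figure D4:**
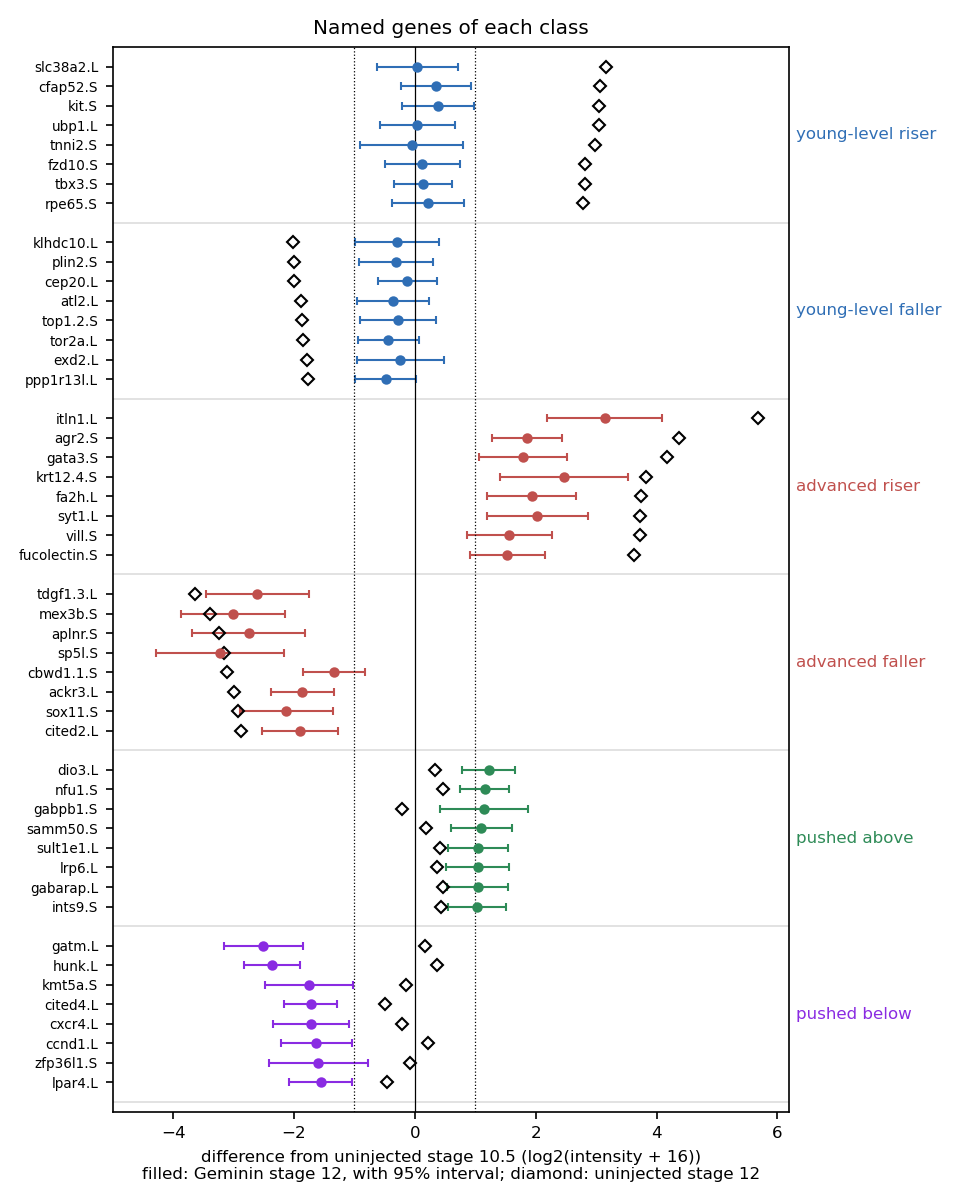
Difference from early uninjected explants in log2(intensity + 16) for named genes of each class: filled points are Geminin stage 12 with the 95% interval and diamonds are uninjected stage 12. Dotted lines mark 2-fold. By the rules of the classes, young-level genes lie between the lines while their diamonds lie outside. By the same rules the pushed genes lie away from 0 while their diamonds lie near it. Among advanced genes, itln1.L stands at 3.14 against a diamond at 5.67.

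Of 16 neural border and crest genes 7 fell and 0 rose (all named genes: 5.60% fell, 4.73% rose), with prdm1.S, tfap2a.L, zic1.S and id3 among them and msx1.L at the young level (median -0.96, late uninjected -0.10). Of 20 genes of neuronal differentiation and Notch, 4 fell and 1, syt1.L, rose (all named genes: 5.60% fell, 4.73% rose). In that list 2 fell without injected stage 12 experiment 3 or uninjected stage 10.5 experiment 1. The rises there numbered 2 without injected stage 10.5 experiment 3, injected stage 12 experiment 1 or uninjected stage 12 experiment 1. Among 9 ionocyte genes foxi1.L fell and 0 rose, among 7 organizer genes sfrp2.S fell (-1.55, adjusted p = 0.00983), and among 16 genes of arginine, ornithine and creatine metabolism gatm.L, slc7a3.L (-1.45, adjusted p = 0.00553) and sat1.L (-1.14, adjusted p = 0.0328) fell. Over all named genes 5.60% fell and 4.73% rose. Counts in the next 3 lists lie near the shares over all named genes. Of 26 Polycomb and chromatin genes 2 fell, dnmt1.S (-1.63, adjusted p = 0.00499) and eed.S (-0.77, adjusted p = 0.0382), of 22 genes of p53, stress and arrest 1 fell, gadd45g.L (-1.52, adjusted p = 0.00878), and of 30 adhesion genes 1 rose, cldn5.S (1.08, adjusted p = 0.0329). Of 4 Hox genes hoxd8.L rose (0.97, adjusted p = 0.0146) and hoxd9 fell (-0.96, adjusted p = 0.0151), and of 5 FGF response genes 0 passed. Lists of 4 and 5 genes are too small to set against the shares over all named genes. Some of these calls hang on single arrays: cldn5.S did not pass without any 1 of the 6 arrays compared, hoxd8.L not without injected stage 12 experiment 2 or 3, hoxd9 not without experiment 3 of that group, sat1.L not without any 1 of the injected stage 12 arrays or uninjected stage 10.5 experiments 1 and 2, and eed.S passed in 5 of 12 runs. A second hoxd8.L probe set gave 0.38 (adjusted p = 0.243).

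**Figure D5:**
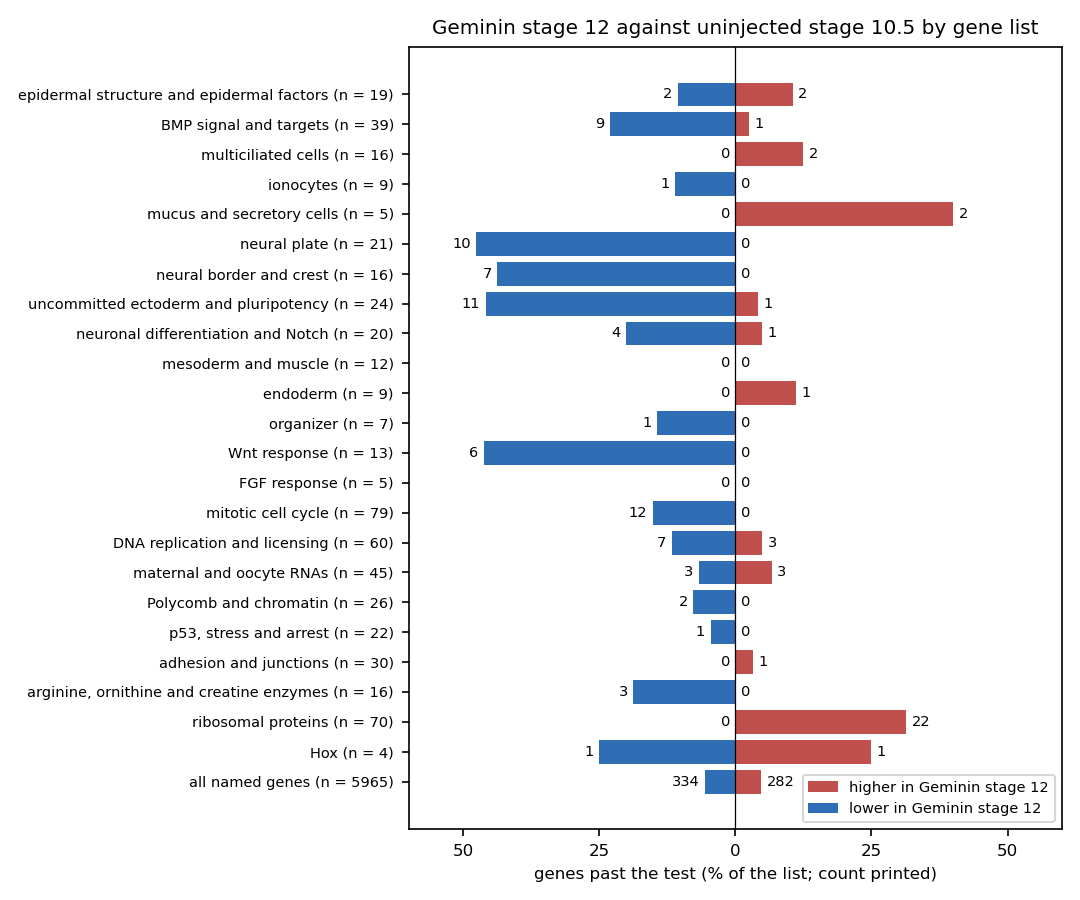
Share of each gene list, in percent of its measured genes, that was higher (red) or lower (blue) in Geminin stage 12 than in uninjected stage 10.5 explants, with counts. Neural plate (10 of 21), pluripotency (11 of 24) and Wnt response (6 of 13) lean to the left, ribosomal proteins (22 of 70) to the right, and all named genes stand at 282 higher and 334 lower of 5965.

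Markers of other tissues were read as a check of the explants. The summed level of 11 ectoderm genes was 13.95 to 14.29 early, 13.89 to 14.07 in late injected and 14.41 to 14.63 in late uninjected explants. Sums add linear values, so the brightest gene, krt70.S (mean 12.80 early and 12.93 in late injected explants), weighs most. Of the 11, 1 was higher in late injected than in early explants (krt12.4.S, 2.47) and 2 were lower (foxi1.L, -3.57, and tfap2a.L, -2.04). For 4 mesoderm and muscle genes the sums were 7.42 to 7.88, 7.54 to 7.63 and 8.96 to 9.63, and for 5 endoderm genes 7.83 to 8.27, 7.60 to 8.13 and 8.69 to 8.84. None of the mesoderm, endoderm, organizer or germ plasm markers tested passed between late injected and early explants (all named genes: 4.73% rose, 5.60% fell). With so few genes this lies near those shares and says little. Of the listed symbols on the array, 4 of 7 mesoderm, 4 of 6 endoderm, 1 of 2 organizer and 1 of 4 germ plasm symbols were tested. None of the genes tested lay below the floor of 4.43, the 5th percentile of all levels. The filter on mean signal had removed dim probe sets first, so the floor says little about these markers. The 1 organizer gene was at 5.06 to 5.43 early, 5.47 to 6.73 in late injected and 6.35 to 7.03 in late uninjected explants. Mesoderm and endoderm sums were thus higher in late uninjected explants, the arrays that define the normal course. The 4 mesoderm genes did not move together there: tnni2.S rose by 2.98, while tbxt.S (0.09) and myod1.L (0.30) did not pass. Eomes.L fell (-0.73, adjusted p = 0.0191), so the higher mesoderm sum rests on tnni2.S. The 5 endoderm genes, in contrast, all stood higher in late than in early uninjected explants. Gata6.L (0.91, adjusted p = 0.01) and a2m.S (1.00, adjusted p = 0.0102) passed, while gata5.S (0.82), gata5.L (0.63) and mix1.S (0.46) did not. The part of such cells in the normal rises was not tested. Of 12 genes in the wider mesoderm and muscle list 0 passed, and of 9 endoderm genes 1 rose, bix1.3.L (0.99, adjusted p = 0.0208). These counts too lie near the shares over all named genes. Bix1.3.L lost its call without injected stage 12 experiment 2 or 3 or uninjected stage 10.5 experiment 1. In explants of many cells, fewer cells of a type and less RNA per cell cannot be told apart.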

How the data were processed

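The authors deposited 1 intensity per probe set and array, on a linear scale, from Affymetrix arrays. The sources used here name neither the summary algorithm nor the scaling, and the number of arrays limits the precision. From these, log2(intensity + 16) was quantile normalised over the 12 arrays. Of 15491 probe sets, the 3873 with a mean signal in the lowest 25% were dropped, and 4 group means were fitted with limma 3.58.1 in R 4.3.3 (lmFit, eBayes with an intensity trend, 8 residual degrees of freedom), with Benjamini-Hochberg adjustment over 11618 probe sets at 0.05. Fold changes understate dim genes. The fit was tested on simulated data. Groups follow the titles, although the description of 1 array, uninjected stage 12 experiment 2, gives stage 10.5. Per the labels, the entire experiment was done 3 times at each stage; whether a number links the 2 stages is not stated. Across the stages compared, deviations of same-numbered arrays correlated at 0.100, -0.013 and 0.178, so no block was used. Within a stage the labels pair injected with uninjected explants (correlation 0.631 as a random block). Counts over all probe sets against late uninjected explants are given with that block where it moves them. The counts of gene lists and of all named genes against late uninjected explants come from the fit without a block and were not computed with it.

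Of all probe sets 9304 had 1 symbol, 195 several and 5992 none. Gene identifiers matched for 9227 and changed 2 symbols. Each named gene is read by its brightest probe set. The suffixes .L and .S stand for the paired gene copies of this tetraploid frog, between which probes may cross-hybridise. Members and lists were chosen with earlier results of these data known. Named are geminin, the 12 largest rises and falls without overlap, up to 8 genes per class by normal change (by difference for pushed genes), up to 4 members per list by p, and members that account for a list. Alternatives covered scaling, filter, pseudocount, blocks, margins, the 6 arrays alone and each array left out. No sequences or positions are given.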

Additional observations from a re-analysis of the deposited data

How the results depend on the processing

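Arrays were 3 a group, and the median SE of a difference was 0.269 log2, which leaves many genes unresolved. Counts below moved by over 1.5 times, and the cause was not tested. On the deposited scale 220 probe sets differed (24 higher, 196 lower; 31 list members; 1375 in the normal course; 270 against late uninjected explants). Of normal risers there 56 were at the young level, 20 advanced (6 short, 6 at the late level) and 0 opposite, and of normal fallers 3 at the young level and 133 advanced (0 short, 14 late, 0 beyond), with 1 pushed above and 4 below. Median centring gave 1055 higher, 521 advanced risers (297 late, 1 beyond) and 10 fallers beyond. Under it cdc20.S, a mitotic activator at -0.49, turned to 0.146 (adjusted p = 0.591), and has1.S to 0.393 (adjusted p = 0.0916), against 0.036 on the deposited scale (adjusted p = 0.977).

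Quantile normalisation over the 6 arrays gave 726 (299 higher), and a fit of those arrays alone 726 (298 higher). No filter left 10 fallers beyond. Dropping the lowest 50% left 158 young-level risers and 10 pushed above. Pseudocount 1 gave 5 opposite risers, and pseudocount 64 gave 1, with 135 young-level fallers, 72 risers at the late level, 7 fallers beyond, 4 pushed above and 37 below. Averaging stage 12 experiments 2 and 3 gave 357 (116 higher, 241 lower; 50 list members; 503 against late), 76 advanced risers (17 short, 28 late), 1 opposite, 147 advanced fallers (3 short, 47 late, 1 beyond), 8 above and 28 below. A 1.5-fold margin gave 21 young-level risers and 18 fallers, 13 and 17 at the late level, 1 above and 4 below. A normal course from 1.5-fold gave 663 young-level risers and 704 fallers and 10 opposite, and one from 4-fold gave 36, 3 and 0, with 84 and 86 advanced.

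The replicate block gave 1982 (999 higher, 983 lower; 165 list members; 2300 against late), 427 advanced risers (168 short, 199 late), 9 opposite risers and 2 fallers, 109 fallers short and 237 late, and 28 pushed above. Of 138 called named probe sets 138 kept their call under it, and 11 of the other 72 gained one. A random block of experiment within stage (correlation 0.631) gave 4676 against late, 1 opposite, 2 risers beyond, 131 fallers short and 30 beyond. 

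Leaving out single arrays gave 468 to 1641 differing probe sets (175 to 771 higher, 293 to 870 lower; 54 to 143 list members), 2811 to 3784 in the normal course and 748 to 1523 against late. Advanced risers ran from 106 to 343 (short 23 to 92, late 61 to 151, beyond 0 to 1) and fallers from 170 to 445 (short 12 to 55, late 69 to 195, beyond 3 to 18). Young-level risers ran from 193 to 346 and fallers from 160 to 326, opposite risers from 1 to 7, pushed above from 8 to 20 and below from 33 to 64. Of the 138 called named probe sets, 81 to 138 kept their call, and 48 kept it on the deposited scale, 122 after median centring and 74 with experiments averaged. Of 210 named probe sets, sign changes of called values numbered 3 over the settings that refitted gene values, those of cdc20.S and has1.S. The 27 settings also include the margin and normal-course cut-offs, which leave gene values unchanged.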

Other observations

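The 2 copies of a gene were measured apart in 793 pairs. In 78 pairs both copies took part in the normal course in the same direction, and 39 of these pairs fell in the same class in late injected explants, with 6 at the young level and 13 advanced in both copies. In 4 pairs 1 copy was at the young level and the other had advanced. For arl6ip1 the L copy stood at 0.41 and the S copy at 1.43 from early explants (normal 1.26 and 1.56). For ubald2 the L copy stood at 0.84 and the S copy at -0.07 (normal 2.76 and 1.00). For sat1, an acetyltransferase of polyamine breakdown, the L copy stood at -1.14 and the S copy at -0.12 (normal -1.19 and -1.42), and for natd1 the values were -0.72 and -0.32 (normal -1.79 and -1.01). The difference between copies was not tested, and cross-hybridisation between them would bring their values together.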
